A study of Mus musculus with 15 samples.

Results

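Mouse embryonic fibroblasts that spent 3 days in culture without differentiation agents (MEFD3min, 3 samples) are compared here with the same kind of cells at day 0 (MEFD0, 3 samples). The samples were taken by their group labels and make up 6 of the 15 in the series, in which RNA was sequenced and reads were counted per gene. By their labels, all are wild-type MEFs of the BALB/c strain from 10.5 day old embryos, grown in DMEM with 10% foetal bovine serum. The study's introduction names another strain and embryonic age for MEFs, without saying that it means these cells. Neither group was given differentiation medium. MEFD5min, the untreated cells at day 5, and MEFD3plu are set beside them where they help to place a change (3 samples each). MEFD3plu cells, of the same strain, genotype and embryonic age, spent their 3 days with rosiglitazone at 10 μM, dexamethasone at 1 μM, insulin at 10 μg/mL and the phosphodiesterase inhibitor 3-isobutyl-1-methylxanthine at 0.5 mM. The question addressed is how the fibroblasts' transcripts differed after 3 days in culture without these agents.

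By the study's methods, the cells were seeded in multi-well plates and induced at confluency, and the induction medium was replaced with growth medium at day 3. Cell density at harvest, feeding of the untreated wells, passage number and the number of embryos behind a culture are not stated. Each group has replicates numbered 1, 3 and 4, and the methods describe results in general as means of 3 or more independent experiments. Neither labels nor methods say for these samples whether the replicates are separate isolations or wells of a single culture. The p-values therefore measure the spread between these samples, which may be technical. Time in culture, cell density and the age of the medium change together between the groups and cannot be told apart.

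The total counts per sample were 27144003, 35852844 and 33878281 in MEFD0 and 31826222, 36039085 and 31897563 in MEFD3min (replicates 1, 3 and 4, the order used throughout). Levels are given as CPM, counts scaled to a common library size. Of 29186 genes with a count, 15997 had enough counts to be tested. The 10 genes with the most counts held 5.98%, 6.01% and 6.78% of the counts in MEFD0 and 8.88%, 8.98% and 9.61% in MEFD3min, so every day 3 library was more concentrated on a few transcripts. Mitochondrially encoded transcripts held 3.15%, 3.05% and 3.54% in MEFD0 and 3.29%, 2.44% and 4.12% in MEFD3min, which overlap. On the log2 CPM of all genes tested, samples of the same group lay 55.7 to 57.8 apart in MEFD0 and 59.0 to 76.9 apart in MEFD3min, and samples of different groups lay 167 to 173 apart. The day 3 samples thus differed more among themselves than the day 0 samples did, and much less than the groups differed from each other.

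Fibroblasts that fill a dish or run short of growth factors leave the cell cycle and enter a reversible resting state called quiescence. Genes of DNA replication, driven by E2F factors, and genes of mitosis, driven by the MuvB complex with FOXM1, are then silenced, while inhibitors of cyclin-dependent kinases, lysosomes and matrix production often go up. Fibroblasts also answer interferon, a secreted alarm signal that acts through its receptors and JAK kinases to switch on antiviral genes, and the same pathway can keep these genes at a basal level.

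A gene is called changed, and said to have risen or fallen, where edgeR's quasi-likelihood test gave a Benjamini-Hochberg adjusted p under 0.05 over all genes tested. Of the 15997 genes, 9601 (60.0%) passed, 5024 higher (31.4%) and 4577 lower (28.6%) in MEFD3min. At least 2-fold changes were called for 2416 genes upward (15.1%) and 1652 downward (10.3%). At least 4-fold changes numbered 1189 upward and 556 downward, and at least 16-fold changes 436 and 55. Large changes among the genes tested were thus mostly increases. Of the genes called, 376 had no more than 3 counts in any MEFD0 sample but more at day 3, and 85 the reverse. A gene could pass the filter through any of the 5 groups, most of them later than day 0. The filter thus admits genes absent at day 0 more readily than genes absent later. Its part in this imbalance was not tested. Over all genes tested the log2 fold change had a median of 0.04, with an interquartile range from -0.48 to 0.64. With libraries scaled by total counts alone this median moved by -0.117, and 4234 genes were higher and 5415 lower, so which direction is the more frequent depends on scaling. The values of the 3 MEFD3min and 3 MEFD0 samples did not overlap for 9642 genes (60.3%). With so many genes called, a gene family is described below by how many members passed in each direction and by its median, to be read against these shares. MEFD5min against MEFD3min called 6845 genes (42.8%), 3400 higher (21.3%) and 3445 lower (21.5%), and MEFD3plu against MEFD3min called 8967 (56.1%), 4480 higher (28.0%) and 4487 lower (28.0%). All of these comparisons share the MEFD3min samples, so their values are given side by side and not combined.

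Reads may also be credited to the wrong gene where genes overlap. The labels and the methods name different library kits, of which only the one in the methods keeps the strand, and the strand setting of the counting is not stated. Exons of a gene on the other strand cover 67.9% of Tagln, 57.2% of Fosl1, 30.7% of Cdkn1c, 26.8% of Ctsl, 23.4% of Ccnd1, 23.2% of Ccn2 and 19.4% of Txnip, so these genes' values are less certain than others.

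**Figure D1:**
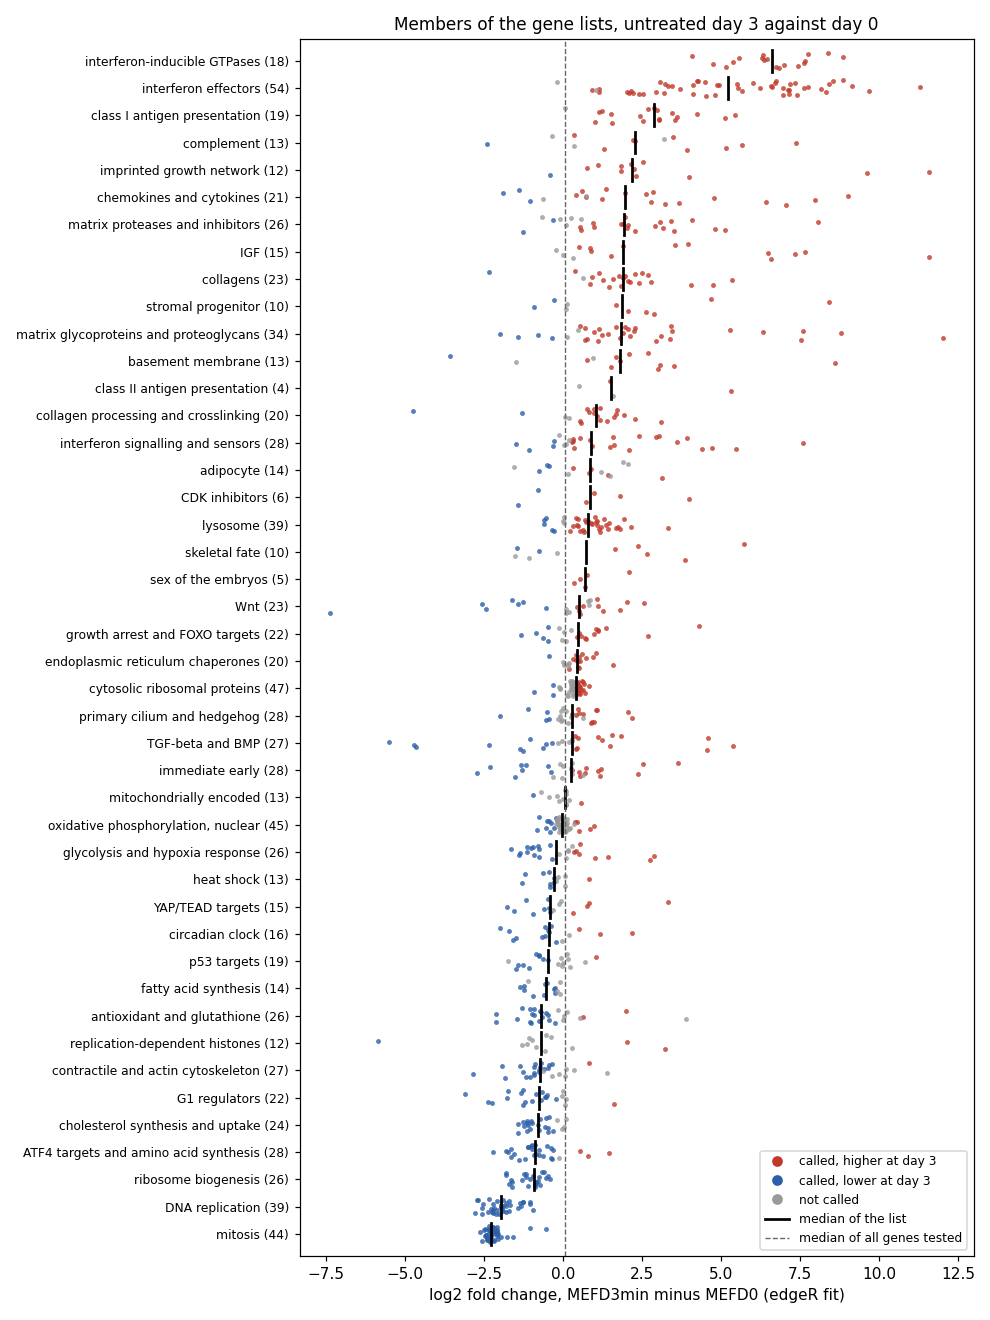
Log2 fold change of MEFD3min against MEFD0 (horizontal axis) for every tested member of 44 gene lists (vertical axis). Red points passed the test as higher, blue points as lower and grey points did not pass; the black tick is the list's median and the dashed line that of all genes tested, 0.04. Mitosis and DNA replication lie wholly to the left of 0, and the interferon-inducible GTPases wholly to the right.

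The cells' label was checked against 11 fibroblast markers, all of which were tested. Their summed level was 8855, 9872 and 9824 CPM in MEFD0 and 21600.0, 28850.0 and 24120.0 CPM in MEFD3min. Every sample therefore carried abundant fibroblast transcripts, and the day 3 samples more of them. Of the 11, 6 rose and 3 fell. The increases were in collagens Col1a1, Col1a2 and Col3a1, in the small leucine-rich proteoglycans Dcn and Lum, and in the platelet-derived growth factor receptor Pdgfra. The decreases were in the intermediate filament Vim, in S100a4 and, with overlapping values, in Thy1, whose call was lost without MEFD0 replicate 1 or 3 or MEFD3min replicate 1 (-0.26 to -0.22). Vim was the most abundant marker per length in MEFD0, at 1379 CPM per kb of exon, and stood at 593 in MEFD3min, where Col3a1 passed it with 884. It measured 5859, 6498 and 7261 CPM in MEFD0 and 2685, 2499 and 3254 CPM in MEFD3min, lower in all 3 day 3 samples.

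Most markers of other cell types had too few counts to be tested. Of 14 macrophage markers, 5 were tested, with summed levels of 13.1, 11.5 and 13.2 CPM in MEFD0 and 15.2, 14.7 and 17.9 CPM in MEFD3min. The lipopolysaccharide co-receptor Cd14 had the highest mean in MEFD0, at 9.41 CPM, and Mrc1 in MEFD3min, at 5.10 CPM against 4.81 for Cd14. The defining markers Adgre1, C1qa, C1qb, C1qc, Tyrobp and Itgam had 0 counts in all 6 samples. Lyz2 and Mrc1 rose to a mean of 2.45 and 5.10 CPM, Cd68 rose from 1.68 to 3.28 CPM, and Cd14 fell. Csf1r fell by 1.81 on the log2 scale, a call lost without any sample other than MEFD0 replicate 3 (-1.91 to -1.54). Endothelial markers (4 of 9 tested) summed to 1.99, 1.48 and 1.31 CPM in MEFD0 and 6.55, 7.07 and 7.70 CPM in MEFD3min, most of the day 3 sums from Emcn, a sialomucin that rose from a mean of 0.0274 to 5.78 CPM, while Cdh5 fell from 0.839 to 0.355 CPM. Neural markers (6 of 10 tested) summed to 47.4, 44.4 and 43.7 CPM in MEFD0 and 13.2, 13.1 and 14.3 CPM in MEFD3min, with most of the day 0 counts on the microtubule protein Map2, which fell from a mean of 32.7 to 5.87 CPM. Tubb3, Sox2 and Snap25 also fell, while Elavl4 rose. Dcx was called on 1, 4 and 2 counts in MEFD3min against 0 in MEFD0, too few to show a rise over the floor. Pericyte markers (3 of 5 tested, 0 called) summed to 133, 169.9 and 106 CPM in MEFD0 and 102, 190.4 and 98.1 CPM in MEFD3min, almost all Cspg4, in which the groups overlap (log2 fold change -0.07, and called at -0.46 without MEFD3min replicate 3).

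Muscle markers (2 of 10 tested) summed to 1.37, 1.25 and 0.837 CPM in MEFD0 and 0.125, 0.0842 and 0.235 CPM in MEFD3min, with most of the day 0 counts on the troponin Tnnt2, which fell, and with Acta1 not called. Epithelial markers (2 of 8 tested) summed to 0.754, 0.821 and 1.28 CPM in MEFD0 and 0.501, 0.337 and 0.202 CPM in MEFD3min, with Krt19 falling and Krt8 rising at levels near the floor. Erythroid markers (1 of 8 tested) summed to 0.206, 0.318 and 0.698 CPM in MEFD0 and 0.783, 1.01 and 0.403 CPM in MEFD3min, with Alas2 the most abundant and not called (called at 2.104 without MEFD0 replicate 4). Germ cell and pluripotency markers (1 of 5 tested) summed to 0.0343, 0.0795 and 0.0279 CPM in MEFD0 and 0.251, 0.253 and 0.235 CPM in MEFD3min, with Ddx4 the most abundant, whose rise of 2.67 was not called without MEFD0 replicate 4 (2.11). The defining markers of these lineages were therefore at or near 0 in every sample. In bulk RNA, fewer cells of a type and less RNA per cell cannot be told apart. The part of these rare transcripts in the changes described here was not tested.

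The cell cycle genes fell together. All 39 genes of DNA replication were lower in MEFD3min, with a median log2 fold change of -1.97, and all 44 genes of mitosis were lower, with a median of -2.28. Mki67, the proliferation marker that coats mitotic chromosomes, measured 821, 785 and 719 CPM in MEFD0 and 119, 122 and 133 CPM in MEFD3min. The groups lie far apart, with the highest day 3 sample well under the lowest day 0 sample. Mki67 fell 6.20-fold (log2 fold change -2.63 ± 0.08 standard error, lower in 3 of 3 samples, edgeR's quasi-likelihood test, Benjamini-Hochberg adjusted p = 1.90e-13). Mcm5, a subunit of the replicative helicase, measured 212, 233 and 208 CPM in MEFD0 and 33.2, 38.5 and 38.7 CPM in MEFD3min, and fell 5.92-fold. The other helicase subunits fell as well, from Mcm6 at -1.43 to Mcm3 at -2.28 on the log2 scale. Among the steepest decreases of the list were the ribonucleotide reductase subunit Rrm2 at 194, 196 and 205 CPM in MEFD0 against 29.9, 28.4 and 32.4 CPM in MEFD3min, thymidine kinase Tk1 at -2.70 and the chromatin assembly factor Chaf1b at -2.80 on the log2 scale.

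In mitosis, the cyclin Ccnb1 that drives entry into it measured 150.2, 160.2 and 154 CPM in MEFD0 and 26.8, 25.9 and 39.6 CPM in MEFD3min, and its partner kinase Cdk1 measured 218, 222 and 247 CPM in MEFD0 and 76.4, 59.1 and 91.6 CPM in MEFD3min. Ccnb1 fell 5.04-fold and Cdk1 3.03-fold, with no overlap between the groups in either. Top2a, the topoisomerase that untangles replicated chromosomes, fell 4.31-fold from a mean of 654 to 152 CPM, and the survivin gene Birc5 fell 5.91-fold. Foxm1, the factor that switches on many of these genes, fell from 147 to 27.1 CPM. Pttg1 (securin) fell least, at -0.53 on the log2 scale, and Mki67 fell most. Every member still had counts in every day 3 sample: summed over the list, mitosis measured 7469, 7388 and 7327 CPM in MEFD0 and 1615, 1529 and 1896 CPM in MEFD3min.

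Control of the G1 phase shifted in the same direction with exceptions. Of 22 regulators, 17 fell, 1 rose and 4 were not called, with a median of -0.77. The D-type cyclins, which couple growth factor signals to the cycle, parted ways. Ccnd1 measured 843, 842 and 825 CPM in MEFD0 and 331, 339.9 and 364 CPM in MEFD3min and fell 2.42-fold. Ccnd3 measured 78.2, 84.0 and 81.9 CPM in MEFD0 and 245, 257 and 234 CPM in MEFD3min and rose 3.01-fold, and Ccnd2 stayed near 279.8 to 289 CPM without passing the test. The E-type cyclins Ccne1 and Ccne2 fell by more than Ccnd1, with log2 fold changes of -2.26 and -2.38. Among the E2F factors the repressor E2f7 fell most, from a mean of 35.7 to 4.09 CPM, while E2f1 fell only from 73.2 to 62.7 CPM and E2f5 was not called. Myc, which drives growth, fell from 63.8 to 25.4 CPM.

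The inhibitors of cyclin-dependent kinases did not move as a block. Of the 6 tested of 7, 4 rose and 2 fell (median 0.83). Cdkn1b (p27), a hallmark of quiescent fibroblasts, measured 104, 95.9 and 102 CPM in MEFD0 and 172, 155 and 165 CPM in MEFD3min, and Cdkn1c (p57) measured 1.17, 0.503 and 1.06 CPM in MEFD0 and 14.5, 11.5 and 16.7 CPM in MEFD3min. Both rose in every sample without overlap, Cdkn1b 1.63-fold and Cdkn1c 15.9-fold. Cdkn2c (p18) rose from 53.8 to 105 CPM. Cdkn1a (p21), a target of p53, measured 131, 132 and 132 CPM in MEFD0 and 47.5, 49.2 and 48.9 CPM in MEFD3min and fell 2.71-fold. Cdkn2d (p19) fell from 27.9 to 16.1 CPM. The locus tied to senescence in culture stayed low: Cdkn2a measured 0.617, 1.32 and 1.06 CPM in MEFD0 and 3.32, 2.67 and 4.57 CPM in MEFD3min, a rise of 3.45-fold, and its neighbour Cdkn2b had 3, 1 and 4 counts in MEFD0 and 12, 3 and 9 counts in MEFD3min, too few to be tested.

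Among 19 tested of 21 p53 targets, 9 fell, 1 rose and 9 were not called, with a median of -0.49 (-0.16 with genes at the floor put at their bounds; 2 rose without MEFD0 replicate 3, MEFD3min replicate 4 or a filter). The cyclin Ccng1 measured 723, 672 and 789.9 CPM in MEFD0 and 287, 232 and 380.0 CPM in MEFD3min and fell 2.43-fold. Bax, which opens mitochondria in apoptosis, fell from 170.0 to 81.0 CPM, and the nuclease Aen from 124 to 44.5 CPM. The stress regulator Sesn1 rose from 27.7 to 57.2 CPM, and Mdm2 fell from 142 to 100.5 CPM. Of 22 genes of growth arrest and FOXO targets, 12 rose, 5 fell and 5 were not called, with a median of 0.46 (0.25 without MEFD3min replicate 3). Txnip, which restrains thioredoxin and glucose uptake, measured 21.3, 24.7 and 22.7 CPM in MEFD0 and 445, 429 and 462 CPM in MEFD3min. All 3 day 3 samples were far above all day 0 samples, a rise of 19.4-fold (log2 fold change 4.28 ± 0.10, higher in 3 of 3 samples, edgeR's quasi-likelihood test, Benjamini-Hochberg adjusted p = 1.07e-14). Gadd45a, a growth arrest and DNA damage gene, measured 20.9, 23.4 and 21.8 CPM in MEFD0 and 142, 138 and 148 CPM in MEFD3min, while its relative Gadd45b fell from 5.52 to 2.20 CPM. The forkhead factors Foxo1, Foxo3 and Foxo4 rose by 0.69, 0.43 and 0.57 on the log2 scale, and Gas1 from 47.0 to 66.0 CPM.

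Replication-dependent histones, whose transcripts mostly lack a poly(A) tail, were hardly captured: 12 of 24 were tested, and 9 of them were not called. The 2 that rose were the linker histone Hist1h1c, at 8.09, 14.4 and 9.57 CPM in MEFD0 and 81.2, 89.9 and 126 CPM in MEFD3min, and Hist1h2bc, at 6.58, 6.995 and 7.64 CPM in MEFD0 and 28.0, 21.9 and 35.7 CPM in MEFD3min. The list's median, -0.71 (-0.54 with genes at the floor at their bounds), comes mostly from genes under 1 CPM, and it turned positive when only genes with more counts were kept.

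The interferon response showed the largest medians of all families examined. Of 55 effectors 54 were tested, 52 of them rose and 0 fell (1 without MEFD3min replicate 4, with total counts alone or with a replicate block), with a median log2 fold change of 5.22. Of the 28 with at least 10 counts in every sample, 27 rose, with a median of 3.595, so the size of the list's median depends on genes with few counts. Ifitm1 and Slfn9 were not called. Their summed level was 705, 709.6 and 731 CPM in MEFD0 and 8575, 7685 and 9653 CPM in MEFD3min, so the rise is seen in each sample. Isg15, a ubiquitin-like modifier, measured 0.686, 0.742 and 1.06 CPM in MEFD0 and 231, 186 and 305 CPM in MEFD3min. It was under or near 1 CPM in every day 0 sample and above 180 CPM in every day 3 sample. The rise was 287-fold (log2 fold change 8.16 ± 0.44, higher in 3 of 3 samples, edgeR's quasi-likelihood test, Benjamini-Hochberg adjusted p = 5.73e-11). Ifit1, which binds viral RNA caps, measured 12.4, 12.6 and 13.4 CPM in MEFD0 and 623, 487 and 821 CPM in MEFD3min, and Ifitm3, which blocks viral entry and was the most abundant member per length at 1287 CPM per kb in MEFD3min, measured 59.3, 68.2 and 73.7 CPM in MEFD0 and 866, 679.9 and 1072 CPM in MEFD3min. Both were present at day 0 and higher at day 3.

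Among the 2′-5′ oligoadenylate synthetases, which make the second messenger that activates RNase L, Oasl2 measured 0.171, 0.530 and 0.753 CPM in MEFD0 and 295, 288 and 274 CPM in MEFD3min. Oas2 had 1 count in each day 0 sample and a mean of 81.3 CPM at day 3, a ratio of 2820.0 (95% counting interval 964 to 13700.0). Intervals and floors of this kind cover counting error alone. Other effectors with almost no counts at day 0 were Zbp1, a sensor of Z-form nucleic acid, with a ratio of 551 (95% counting interval 152 to 4560.0), and the antiviral GTPase Mx1, with a ratio of 139 (95% counting interval 47.1 to 676). Usp18, which removes Isg15 from proteins and dampens the receptor, measured 0.274, 0.344 and 0.949 CPM in MEFD0 and 197, 172 and 222 CPM in MEFD3min, Ifi27l2a measured 0.446, 0.662 and 0.837 CPM in MEFD0 and 212, 160.1 and 259.7 CPM in MEFD3min, and Ifi44 measured 0.0686, 0.159 and 0.502 CPM in MEFD0 and 211, 182 and 239 CPM in MEFD3min. None of these overlap between the groups. Further effectors spanned a wide range, from Bst2 (tetherin), which rose from 4.11 to 694 CPM, and Lgals3bp, which rose from 17.0 to 777 CPM, to Ifit2, which rose only from 73.5 to 138 CPM. Some effectors share sequence and are uncertain singly: of the 50-base stretches of Ifit3, 51.2% also occur in Ifit3b, and 57.6% of those of Oas1a occur in Oas1g, so reads may be credited to either copy. In all, 16 of the 54 share more than 10%.

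Upstream of the effectors, 28 of 30 signalling genes and sensors were tested, of which 20 rose, 4 fell and 4 were not called (median 0.89). Of the receptors and kinases, Ifnar1 and Jak1 rose by 0.34 and 0.27 on the log2 scale and Ifnar2 by 1.47, and Ifngr2 fell from 138 to 109 CPM. Stat2 and Irf9, which act together at interferon-stimulated response elements, rose more than these, from 18.5 to 141 and 14.9 to 179 CPM. Irf7, which amplifies interferon production, measured 0.377, 0.477 and 0.279 CPM in MEFD0 and 69.1, 80.6 and 72.2 CPM in MEFD3min, a switch from near 0 in all 3 day 0 samples. The cytosolic RNA sensors Ddx58 (RIG-I), Ifih1 (MDA5) and Dhx58 (LGP2) rose by 4.39, 4.70 and 5.47 on the log2 scale, the membrane sensor Tlr3 by 3.03 and the adaptor Tmem173 (STING) by 2.40. The DNA sensor Cgas fell, with 21.4, 19.8 and 19.3 CPM in MEFD0 and 9.14, 10.9 and 8.74 CPM in MEFD3min, as did Irf5 and Mavs, and Irf2, Irf3, Tyk2 and Nlrc5 were not called.

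The interferons themselves were barely detected. None of 19 ligand genes had enough counts to be tested. Ifnb1 had 0, 0 and 1 counts in MEFD0 and 1, 4 and 1 counts in MEFD3min, and Ifna4 had 0, 0 and 0 counts in MEFD0 and 2, 1 and 2 counts in MEFD3min. The list summed to 0.0343, 0.159 and 0.112 CPM in MEFD0 and 0.188, 0.365 and 0.235 CPM in MEFD3min, so each day 3 sum lay above each day 0 sum, but on so few reads that no member could be tested. Protein interferon was not measured.

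The interferon-inducible GTPases, which coat and disrupt vacuoles that hold pathogens, all rose: 18 of 18, with a median of 6.59 (5.46 with the genes at the floor at their bounds). Of the 18, 8 were at the floor in MEFD0, passed the filter only through later groups and could hardly be called lower. The 5 with at least 10 counts in every sample all rose, with a median of 6.32. Gbp2 measured 2.26, 2.68 and 3.21 CPM in MEFD0 and 96.0, 75.04 and 119 CPM in MEFD3min, Gbp3 measured 1.34, 0.742 and 1.73 CPM in MEFD0 and 224, 186 and 247 CPM in MEFD3min, and the immunity-related GTPase Irgm1 measured 24.2, 20.8 and 24.6 CPM in MEFD0 and 369.7, 316 and 481 CPM in MEFD3min. Iigp1 measured 0.206, 0.185 and 0.558 CPM in MEFD0 and 146, 121 and 186 CPM in MEFD3min. Each of these 4 separates the groups without overlap. Gbp8, Gbp10 and Gvin1 had 0 counts at day 0 and rose at least 8.47-fold, 4.82-fold and 3.69-fold against a floor of 3 counts per library, and Tgtp2 had a ratio of 374 (95% counting interval 127 to 1810.0). Gbp6, Gbp10, Gvin1, Tgtp1 and Tgtp2 each share more than 50% of their sequence stretches with other genes, so their single values are uncertain.

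Antigen presentation by class I rose in 18 of 19 genes (median 2.86), with Tapbpl the exception. B2m, the light chain of every class I molecule, measured 1081, 1121 and 1179 CPM in MEFD0 and 3119, 2880.0 and 3771 CPM in MEFD3min, a rise of 2.89-fold from an already high level. The heavy chain H2-K1 rose from 45.8 to 527 CPM and H2-D1 from 216 to 1242 CPM, the peptide transporter Tap1 from 9.62 to 74.8 CPM, and the non-classical H2-T23 from 2.01 to 87.1 CPM. Psmb8, a protease subunit that replaces its constitutive counterpart in the immunoproteasome, measured 0.617, 0.689 and 0.391 CPM in MEFD0 and 11.5, 9.09 and 11.6 CPM in MEFD3min. Class II stayed near absent: 4 of 7 genes were tested, H2-Ab1 and H2-DMb1 rose, at means of 0.00930 to 0.536 and 2.08 to 5.83 CPM, and H2-DMa and Ciita were not called (median 1.52); all 4 rose without MEFD3min replicate 4, and the median was 1.00 for the 2 with at least 10 counts. In contrast to the immunoproteasome, the constitutive proteasome fell in 25 of 34 subunits, rose in 0 and was not called in 9 (median -0.48), a list chosen after values were seen.

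Chemokines and cytokines were mostly higher: 21 of 29 were tested, 16 rose, 3 fell and 2 were not called (median 1.97, or 1.40 with genes at the floor at their bounds). Cxcl10, which draws T cells and is induced by interferon, measured 1.44, 1.48 and 1.17 CPM in MEFD0 and 36.7, 31.1 and 43.4 CPM in MEFD3min. Ccl5 measured 0.994, 1.54 and 1.48 CPM in MEFD0 and 15.5, 16.1 and 19.7 CPM in MEFD3min. Ccl2 and Ccl7, which draw monocytes, rose from 30.1 to 278 and 7.19 to 49.7 CPM, and the eosinophil chemokine Ccl11 from 0.0707 to 10.8 CPM. Cxcl9 and the growth factor Csf2 had 0 counts in all day 0 samples and rose at least 22.2-fold and 10.8-fold. The alarmin Il33 rose from 166 to 646 CPM while its receptor Il1rl1, at 509.5, 529 and 518 CPM in MEFD0 and 126, 114 and 174 CPM in MEFD3min, fell 3.76-fold. Cxcl12, the stromal chemokine with the most counts of the list, rose only from 952 to 1555 CPM, and Csf1 and Mif fell. Il1a, Il1b and Tnf had too few counts to be tested.

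In the complement cascade, 13 of 16 genes were tested, 9 rose, 1 fell and 3 were not called (median 2.28, or 2.24 with genes at the floor at their bounds). The proteases that start the classical pathway led, C1s1 with 8.74, 8.43 and 6.78 CPM in MEFD0 and 268, 293 and 294 CPM in MEFD3min and C1ra from 7.17 to 109 CPM. C1s1 rose 35.8-fold, though 35.1% of its stretches, and 50.8% of those of C1ra, are shared with their duplicates. The central component C3 rose to a mean of 2.60 CPM, a ratio of 53.9 (95% counting interval 22.8 to 167). The receptor C3ar1 fell from 18.97 to 3.58 CPM.

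**Figure D2:**
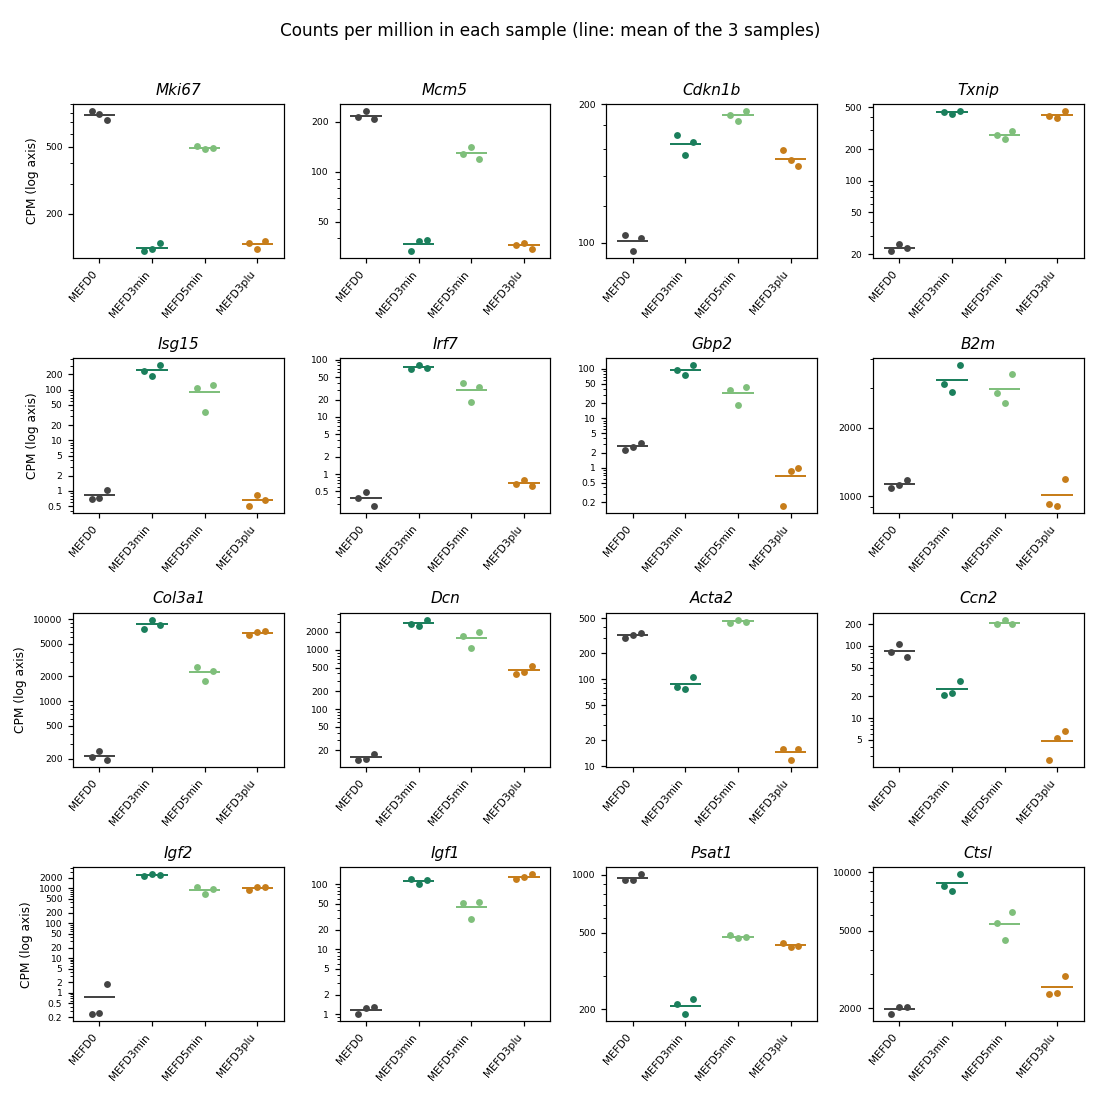
CPM in each sample (vertical log axis, points; the line is the mean of 3 samples) of 16 genes in MEFD0, MEFD3min, MEFD5min and MEFD3plu. Mki67 and Mcm5 are low at day 3 with and without treatment and higher again at day 5, Isg15, Irf7 and Gbp2 are high at day 3 without treatment and much lower in MEFD3plu, and Igf2, Igf1, Col3a1 and Dcn are far above day 0 in all 3 later groups.

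Most matrix genes rose as well. Of 26 collagen genes 23 were tested, 21 rose, 1 fell and 1 was not called (median 1.88, or 1.84 with bounds). Col3a1, the fibrillar collagen of young connective tissue, measured 207, 247 and 192 CPM in MEFD0 and 7635, 9858 and 8538 CPM in MEFD3min. It rose 40.4-fold (log2 fold change 5.33 ± 0.18, higher in 3 of 3 samples, edgeR's quasi-likelihood test, Benjamini-Hochberg adjusted p = 3.69e-13) and became the most abundant collagen per length, at 884 CPM per kb against 444 for Col1a1. Col1a1, a chain of collagen I, measured 412, 540.0 and 328 CPM in MEFD0 and 2229, 4412 and 2098 CPM in MEFD3min, a rise of 6.83-fold in which replicate 3 stood above the others. The fibril-associated collagens Col12a1 and Col14a1 rose from 21.5 to 76.8 and 0.556 to 9.35 CPM, and the beaded filament chains Col6a1 and Col6a2 from 260.4 to 1245 and 194 to 1087 CPM. The fibril regulator Col5a1 rose from 228 to 890.2 CPM. The exception was the anchoring fibril collagen Col7a1, which fell from 8.44 to 1.63 CPM, and Col4a3 was not called.

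Among the other matrix glycoproteins and proteoglycans, 34 of 37 were tested, 28 rose, 4 fell and 2 were not called (median 1.83). Decorin (Dcn), which binds collagen fibrils and growth factors, measured 13.8, 14.5 and 17.6 CPM in MEFD0 and 2744, 2502 and 3240.0 CPM in MEFD3min. Lumican (Lum) measured 0.137, 1.03 and 1.14 CPM in MEFD0 and 374, 301 and 409 CPM in MEFD3min. Dcn rose 185-fold and Lum went from about 1 CPM or less to over 300 CPM in every sample. Periostin (Postn), a matricellular protein of developing and healing tissue, measured 9.43, 12.6 and 9.82 CPM in MEFD0 and 425, 357 and 441 CPM in MEFD3min, and fibronectin (Fn1) measured 2289, 2777 and 1643 CPM in MEFD0 and 3872, 7937 and 3876 CPM in MEFD3min, with replicate 3 highest in both groups. Elastin (Eln) had 1 count in all day 0 samples together and a mean of 55.7 CPM at day 3, a ratio of 5770.0 (95% counting interval 1040.0 to 228000.0). Of the genes of microfibrils and elastic fibres in the list, Fbn1 rose from 129 to 1090.0 CPM, Mfap2 from 0.623 to 51.2 CPM and Mfap4 from 0.247 to 50.7 CPM. Osteopontin (Spp1), the most abundant member per length, rose 2.19-fold from a mean of 2725 to 5964 CPM. The 4 that fell were Fbln1, Fbln2, Ltbp1 and Ltbp2, with Fbln2 at 895, 999 and 718 CPM in MEFD0 and 269.6, 411 and 293 CPM in MEFD3min.

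Basement membrane genes rose in 10 of 13 tested and fell in 1 (median 1.802, or 1.95 with bounds; 14 listed; 2 fell without MEFD0 replicate 1 or 4 or MEFD3min replicate 3, or with total counts alone). The laminin chain Lama4, found around vessels and muscle, measured 0.206, 0.556 and 0.670 CPM in MEFD0 and 179, 231 and 168 CPM in MEFD3min, among the largest increases of all genes. The linker nidogen (Nid1) measured 487, 532 and 383 CPM in MEFD0 and 1695, 2515 and 1775 CPM in MEFD3min, and the partner chains Lamb1 and Lamc1 rose from 304 to 1060.0 and 154 to 491 CPM. The heparan sulfate proteoglycan Hspg2 (perlecan) rose from 515 to 1453 CPM and agrin (Agrn) from 25.3 to 202 CPM. These chains and proteoglycans of a stromal basement membrane thus rose side by side.

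Enzymes and chaperones that mature collagen rose in 16 of 20 genes and fell in 2 (median 1.02). The collagen chaperone Serpinh1 (Hsp47) measured 669, 749 and 710.4 CPM in MEFD0 and 1502, 1485 and 1735 CPM in MEFD3min, and the propeptidase Adamts2 rose from 5.61 to 47.9 CPM. Lysyl oxidases, which crosslink collagen and elastin, rose unevenly: Lox from 33.8 to 49.1 CPM, Loxl1 from 118 to 261 CPM and Loxl2 from 33.4 to 161 CPM, with Loxl3 and Loxl4 not called. The prolyl hydroxylase P4ha1 rose from 167 to 525 CPM while P4ha3 fell, and the procollagen enhancer Pcolce2 fell 27.2-fold, at 34.7, 37.9 and 38.5 CPM in MEFD0 and 1.13, 1.35 and 1.61 CPM in MEFD3min. Its paralogue Pcolce rose from 366 to 643 CPM.

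Proteases that remodel matrix, with their inhibitors, rose in 19 of 26 genes, fell in 2 and were not called in 5 (median 1.93). The urokinase gene Plau measured 129.6, 156 and 144 CPM in MEFD0 and 2461, 2485 and 2351 CPM in MEFD3min, a rise of 17.0-fold, and the tissue plasminogen activator Plat rose from 71.4 to 760.4 CPM. Stromelysin (Mmp3) measured 83.5, 87.1 and 102 CPM in MEFD0 and 729, 643 and 916 CPM in MEFD3min. Plasminogen activators and Mmp3 were therefore high in all 3 day 3 samples. Mmp9, with 1 count at day 0 in all, reached a mean of 3.57 CPM, a ratio of 375 (95% counting interval 66.9 to 14900.0). The membrane protease Mmp14 rose from 239 to 986 CPM, the aggrecanase Adamts4 from 0.870 to 30.2 CPM, the fibroblast activation protein Fap from 31.6 to 279 CPM and Ctsk, a collagen-degrading cathepsin, from 16.7 to 67.8 CPM. Of the inhibitors Timp3 rose from 52.96 to 205 CPM, and Timp1 and Timp2 were not called. Integrin subunits, receptors for this matrix (a list chosen after values were seen), rose in 12 of 21 tested and fell in 4 (median 0.58, 26 listed). The collagen-binding Itga1 and Itga11 rose from 2.91 to 48.1 and 1.10 to 8.51 CPM, and the laminin-binding Itga6 and Itga3 fell.

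The contractile apparatus moved opposite to the matrix. Of 28 genes 27 were tested, 19 fell, 1 rose and 7 were not called (median -0.73; 2 rose without MEFD3min replicate 4). Acta2, the smooth muscle actin that marks myofibroblasts, measured 297, 322 and 338 CPM in MEFD0 and 81.4, 77.9 and 106 CPM in MEFD3min, and the actin-binding Tagln measured 179.6, 182 and 215 CPM in MEFD0 and 46.1, 41.2 and 64.7 CPM in MEFD3min. Acta2 fell 3.61-fold and Tagln 3.80-fold, with no overlap. Tagln shares 58.3% of its sequence stretches, mostly with the overlapping antisense Gm48529. Cytoplasmic actin Actb, often used as a reference gene, measured 2133, 2317 and 2230.0 CPM in MEFD0 and 1013, 1163 and 1048 CPM in MEFD3min, a fall of 2.07-fold, and Actg1 and filamin Flna fell from 1753 to 776 and 1863 to 773 CPM. Srf, the factor that drives this programme, fell from 62.2 to 37.5 CPM. Vinculin (Vcl) was the member that rose, by 0.82 on the log2 scale, and Actn1, Cald1 and Myl9 were not called.

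Targets of YAP and TEAD, which sense density and tension, were split: 8 of 15 fell, 4 rose and 3 were not called (median -0.42, and -0.28 without MEFD0 replicate 3). Ccn2 (connective tissue growth factor) measured 81.8, 107 and 70.3 CPM in MEFD0 and 20.9, 22.3 and 32.7 CPM in MEFD3min, and Ankrd1 measured 187, 206 and 181 CPM in MEFD0 and 59.8, 58.1 and 75.6 CPM in MEFD3min. These canonical targets fell 3.41-fold and 2.96-fold, and Ccn1 fell from 139.9 to 103 CPM. Fjx1 rose 9.98-fold, at 8.98, 11.3 and 9.93 CPM in MEFD0 and 100.3, 104 and 97.1 CPM in MEFD3min, and F3 (tissue factor) from 45.6 to 80.1 CPM. Caveolar coat genes, a list chosen after values were seen, fell in 5 of 7 tested of 8 and rose in 0 (median -0.60), led by Cavin4, from 2.94 to 0.220 CPM, Cav2, from 63.0 to 19.2 CPM, and Cavin2, from 757 to 234 CPM.

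Immediate early genes and their feedback regulators, readouts of growth factor signalling, went both ways: 11 of 28 rose, 8 fell and 9 were not called (median 0.25, but 0.13 with total counts alone and 0.10 without MEFD3min replicate 3). Spry2 and Spry4, which restrain receptor tyrosine kinases, measured 85.1, 99.7 and 87.3 against 476, 579 and 510.0 CPM and 23.5, 24.5 and 24.3 against 290.0, 374 and 231 CPM. Both rose in all samples. Egr1 rose from 36.0 to 79.8 CPM and Fos from 0.665 to 3.53 CPM, whereas their relatives Fosl1, with 118, 119.7 and 105 CPM in MEFD0 and 17.7, 19.9 and 14.5 CPM in MEFD3min, and Jun, from 217 to 87.4 CPM, fell. Fosl1 shares 52.6% of its stretches with the overlapping gene Ccdc85b. Klf4 fell 4.99-fold and the phosphatase Dusp5 from 74.1 to 25.9 CPM.

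Lipid synthesis fell. Of 25 genes of cholesterol synthesis and uptake 24 were tested, 20 fell, 0 rose and 4 were not called (median -0.79). Msmo1, a sterol demethylase, measured 407, 407 and 448 CPM in MEFD0 and 179, 163 and 221 CPM in MEFD3min. Hmgcs1, which starts the pathway, measured 355, 364 and 356 CPM in MEFD0 and 241, 238 and 241 CPM in MEFD3min. Both were lower in every day 3 sample. The cyclase Lss fell 2.69-fold and Acat2 2.69-fold, and Srebf2, the factor that drives the pathway, was not called. Among 14 genes of fatty acid synthesis, 10 fell, 0 rose and 4 were not called (median -0.55, or -0.43 with genes at the floor at their bounds). Fatty acid synthase (Fasn) measured 688, 845 and 570.1 CPM in MEFD0 and 239.9, 361 and 206 CPM in MEFD3min, a fall of 2.61-fold, the desaturase Scd2 fell from 1919 to 1339 CPM, and Srebf1 was not called.

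Glycolysis and hypoxia genes moved both ways. Of 26 tested of 27, 13 fell, 8 rose and 5 were not called (median -0.24, and -0.36 with total counts alone). Most enzymes of glycolysis fell: Pkm, at 2181, 2409 and 2311 CPM in MEFD0 and 975, 1010.0 and 1143 CPM in MEFD3min, Ldha, from 738 to 331 CPM, Eno1, from 408 to 156 CPM, Hk2, from 53.8 to 20.9 CPM, and Gapdh, another common reference gene, from 590.1 to 311 CPM. Gpi1 was the glycolytic enzyme that rose, from 307 to 429 CPM. Of the other genes that rose, the oxygen sensor Egln3 measured 14.9, 19.7 and 18.2 CPM in MEFD0 and 117, 129 and 139 CPM in MEFD3min, adrenomedullin (Adm) rose from 7.16 to 48.4 CPM, and Vegfa, Car9, Pdk1, Ankrd37 and Kdm3a rose by 0.53, 1.42, 0.39, 0.99 and 0.34 on the log2 scale. The sensor Egln1 and the glucose transporter Slc2a1 fell, and Bnip3 and Ndrg1 were not called, so genes known to answer low oxygen did not move as a group. Oxygen in the wells was not measured. At day 5 the list stood 1.49 higher by its median than at day 3.

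Most genes of respiration were not called. Of 45 nuclear genes of oxidative phosphorylation 30 were not called, 10 fell and 5 rose (median -0.03), and with scaling by total counts alone 16 fell and 4 rose (median -0.16, and -0.02 without a filter and -0.01 with at least 10 counts). Without MEFD3min replicate 4, 17 fell (median -0.20), and the median was -0.11, -0.10 and 0.03 without MEFD0 replicate 1, 3 or 4 and 0.07 without MEFD3min replicate 3. Atp5b fell from 1722 to 1298 CPM, while Ndufa6 and Cox6c rose from 47.7 to 94.5 and 119 to 216 CPM. Of 13 mitochondrially encoded genes 11 were not called (median 0.04, but -0.09 with total counts alone, 0.07 with at least 10 counts, -0.01 without MEFD0 replicate 3, and 0.08, 0.19 and -0.18 without MEFD3min replicate 1, 3 or 4). The exceptions were mt-Co1, with 9051, 8843 and 10620.0 CPM in MEFD0 and 13830.0, 10360.0 and 18080.0 CPM in MEFD3min, in which the groups overlap, and mt-Nd3. The call of mt-Co1 was lost without MEFD3min replicate 4 (0.35), and that of mt-Nd3 without MEFD0 replicate 4 (-0.82) or MEFD3min replicate 1 (-0.75). More than 50% of the sequence of 7 of these 13 is shared with nuclear copies, among them mt-Co1 and mt-Nd3.

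Lysosomal genes rose in 31 of 39, fell in 5 and were not called in 3 (median 0.78). The protease Ctsl, the most abundant per length in MEFD3min, measured 1856, 2039 and 2028 CPM in MEFD0 and 8507, 8063 and 9818 CPM in MEFD3min, a rise of 4.46-fold (log2 fold change 2.16 ± 0.13, higher in 3 of 3 samples, edgeR's quasi-likelihood test, Benjamini-Hochberg adjusted p = 3.50e-10). Reads on Ctsl are uncertain for 26.3% of its stretches, mostly shared with the antisense Gm47123. Ctsd and Ctsb rose from 507 to 1776 and 1112 to 2943 CPM, the membrane protein Lamp2 from 529 to 1455 CPM, the sterol carrier Npc2 from 426 to 1047 CPM and Ctsf from 2.18 to 21.96 CPM. Npc1, which works with Npc2, fell from 72.1 to 47.2 CPM, as did Gusb, Sgsh and the proton pump parts Atp6v1h and Atp6ap1. Summed over the list, levels were 9777, 10690.0 and 9945 CPM in MEFD0 and 23000.0, 23990.0 and 25900.0 CPM in MEFD3min.

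The machinery that makes ribosomes fell, while the ribosome's own proteins changed less, and less surely. All 26 genes of ribosome biogenesis fell (median -0.93). Utp20 measured 234, 241 and 217 CPM in MEFD0 and 65.9, 68.8 and 61.1 CPM in MEFD3min, Rrp12 fell 3.54-fold, Nolc1 and Nop56 fell from 216 to 69.8 and 171 to 54.9 CPM, and the abundant nucleolar proteins Ncl and Npm1 fell from 1657 to 901 and 1940.0 to 1436 CPM. The call of Npm1 was lost without MEFD0 replicate 4 or MEFD3min replicate 1 or 3 (-0.42 to -0.27). Of 47 cytosolic ribosomal proteins 25 rose, 3 fell and 19 were not called (median 0.39). The groups did not overlap for 8 of the 47, against 60.3% of all genes tested. Their summed levels overlapped, at 34450, 34340 and 42710 CPM in MEFD0 and 46720, 36830 and 59940 CPM in MEFD3min. With scaling by total counts alone 14 rose and 4 fell (median 0.26), 13 rose in the 6 samples alone, and 9 rose without MEFD3min replicate 4 (median 0.185), 11 without MEFD0 replicate 1 or 3, and 37 without MEFD3min replicate 3. Rps14 measured 895, 892 and 1167 CPM in MEFD0 and 1671, 1283 and 2185 CPM in MEFD3min, with no overlap but a day 3 range that spans most of the rise. Rplp0 measured 3218, 3336 and 4001 CPM in MEFD0 and 4443, 3513 and 5231 CPM in MEFD3min, which overlaps, and its call was lost without MEFD0 replicate 1 or 3 or MEFD3min replicate 1 or 4 (0.18 to 0.31). Of these 47 genes, 38 share more than 10% of their sequence with other genes, mostly processed copies.

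Amino acid synthesis fell sharply. Of 28 targets of the stress factor ATF4 and amino acid genes, 24 fell, 3 rose and 1 was not called (median -0.90). Psat1, an enzyme of serine synthesis, measured 942, 943 and 1013 CPM in MEFD0 and 212, 188 and 226 CPM in MEFD3min. It fell 4.63-fold (log2 fold change -2.21 ± 0.08, lower in 3 of 3 samples, edgeR's quasi-likelihood test, Benjamini-Hochberg adjusted p = 7.62e-13). The other serine enzymes Phgdh and Psph fell from 349.6 to 105 and 80.6 to 23.2 CPM, and the mitochondrial folate enzymes Shmt2 and Mthfd2, which use serine for nucleotide synthesis, from 323 to 104 and 187 to 64.0 CPM. Asparagine synthetase (Asns) fell from 307 to 131 CPM, the tRNA synthetase Aars from 552 to 211 CPM and the cystine carrier Slc7a11 from 36.8 to 16.9 CPM. Nupr1, Ddit3 and Pycr1 rose, Nupr1 with 33.5, 38.7 and 35.0 CPM in MEFD0 and 101, 79.9 and 110.4 CPM in MEFD3min.

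Protein folding divided by compartment. Of 20 chaperones and regulators of the endoplasmic reticulum 14 rose, 1 fell and 5 were not called (median 0.43). Hsp90b1 (Grp94) measured 1022, 1057 and 1009 CPM in MEFD0 and 1403, 1247 and 1601 CPM in MEFD3min, Hspa5 (BiP) rose from 924 to 1325 CPM, Pdia4 from 310.4 to 594 CPM and Dnajb9 from 32.4 to 96.3 CPM. These increases were small beside those of the collagens. Of 13 cytosolic and mitochondrial heat shock genes 8 fell, 1 rose and 4 were not called (median -0.29, and -0.45 without MEFD0 replicate 1; 5 fell without MEFD3min replicate 1), with Hsp90aa1 at 977, 926 and 1048 CPM in MEFD0 and 391.8, 308 and 485 CPM in MEFD3min and the mitochondrial Hspd1 from 839 to 363 CPM. Hspa1b rose from 5.79 to 10.1 CPM, though 62.3% of its stretches are shared with Hspa1a, which was not called.

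Antioxidant and glutathione genes fell in 18 of 26 tested of 29, rose in 2 and were not called in 6 (median -0.70, or -0.72 with bounds; 4 rose without MEFD3min replicate 3 or without a filter, and 1 in the 6 samples alone or with at least 10 counts). Gclc, which limits glutathione synthesis, measured 49.6, 56.0 and 54.0 CPM in MEFD0 and 11.8, 13.8 and 10.6 CPM in MEFD3min, and Nqo1, a quinone reductase, measured 20.3, 22.6 and 23.7 CPM in MEFD0 and 4.13, 4.69 and 6.35 CPM in MEFD3min. Txnrd1 and Gsr fell from 287 to 117 and 74.8 to 27.1 CPM, and of the list's enzymes of the pentose phosphate pathway G6pdx, Pgd, Tkt and Taldo1 fell, G6pdx from 131 to 64.7 CPM. Gstm2 and Sod3 rose, the latter to under 1 CPM, and Sod1 was not called.

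Most genes of the insulin-like growth factor (IGF) system rose. Of 15 genes 12 rose, 0 fell (1 with total counts alone) and 3 were not called (median 1.91, or 2.72 with bounds). Igf2, a fetal growth factor, measured 0.240, 0.265 and 1.84 CPM in MEFD0 and 2299, 2619 and 2387 CPM in MEFD3min, the largest log2 fold change of the genes named for rank, 11.56 ± 0.47 (higher in 3 of 3 samples, edgeR's quasi-likelihood test, Benjamini-Hochberg adjusted p = 2.23e-12). Igf2 was under 2 CPM in each day 0 sample, replicate 4 being the highest, and each day 3 sample lay far above them. Igf2 shares 62.1% of its stretches with the overlapping annotation Gm49394, a readthrough of the same locus. Igf1 measured 0.994, 1.25 and 1.28 CPM in MEFD0 and 119.9, 100.1 and 119 CPM in MEFD3min, a rise of 95.0-fold. Binding proteins, which hold IGFs in the matrix, rose too: Igfbp5 measured 46.9, 48.7 and 49.0 CPM in MEFD0 and 8726, 12620.0 and 7661 CPM in MEFD3min, Igfbp3 rose from 5.27 to 842 CPM and Igfbp4 from 1.77 to 157 CPM. Pappa and Pappa2, proteases that free IGFs from these proteins, rose from 1.44 to 16.4 and 2.47 to 37.6 CPM. The receptors changed less, with Igf2r from 407 to 1158 CPM, Insr from 57.3 to 103 CPM and Igf1r not called.

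Igf2 belongs to a network of imprinted genes that set embryonic growth, in which 11 of 12 rose and 1 fell (median 2.19, or 1.98 with genes at the floor at their bounds). H19, the noncoding RNA beside Igf2 that is expressed from the other parental copy, measured 0.960, 1.48 and 3.52 CPM in MEFD0 and 1619, 1377 and 1703 CPM in MEFD3min. Plagl1, a factor known to act on the network, rose from 179 to 797 CPM, Meg3 from 359 to 1262 CPM, Dlk1 from 9.88 to 49.0 CPM and Peg3 from 198 to 426 CPM. Grb10, which restrains insulin and IGF receptors, fell from 644 to 483 CPM. Genes expressed from the maternal and from the paternal copy thus rose side by side.

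Ligands and regulators of TGF-beta and BMP signalling split: 27 of 30 were tested, 12 rose, 10 fell and 5 were not called (median 0.26, but 0.05 without MEFD3min replicate 3, 0.145 without MEFD0 replicate 4, 0.14 with total counts alone and 0.16 in the 6 samples alone; 6 of 21 fell with at least 10 counts). Tgfb2 measured 6.34, 6.09 and 6.33 CPM in MEFD0 and 140.1, 164 and 148 CPM in MEFD3min, a rise of 24.1-fold, with Tgfb3 from 41.9 to 89.0 CPM and the receptors Tgfbr2 and Tgfbr3 from 65.0 to 230.2 and 112 to 329 CPM. Grem1, an extracellular antagonist of BMP, measured 369.8, 382 and 359.9 CPM in MEFD0 and 72.0, 63.4 and 84.0 CPM in MEFD3min, and follistatin (Fst), which binds activin, fell from 19.2 to 0.764 CPM. Bmp2 rose from 0.154 to 3.71 CPM, yet the BMP target genes Id1 and Id2 fell and Id3 was not called. Id4 had almost no counts at day 3 and was lower by a ratio of 50.5 (95% counting interval 17.0 to 247).

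Of 31 Wnt genes 23 were tested, 10 rose, 7 fell and 6 were not called (median 0.51, 0.18 with genes at the floor at their bounds, and 0.22 without MEFD3min replicate 3; 2 of 14 fell with at least 10 counts). The non-canonical ligand Wnt5a rose from 128 to 266 CPM and the receptors Fzd1 and Fzd2 from 16.1 to 38.1 and 52.4 to 182 CPM. Wnt10b, an antagonist of fat cell formation, fell from 15.7 to 5.02 CPM, the factor Lef1 from 1.38 to 0.251 CPM and the enhancer Rspo2 from 3.58 to 0.599 CPM, while Rspo3 rose from 0.305 to 1.87 CPM. Ccn5 was lower by a ratio of 196 (95% counting interval 54.0 to 1630.0), and Dkk2, the most abundant member per length, was not called. The readout gene Axin2 had too few counts to be tested.

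Lists chosen after values were seen add other signals. FGF ligands and receptors (14 of 27 tested) rose in 5, fell in 4 and were not called in 5 (median -0.16, or -0.21 with bounds). Fgf1 rose from 0.1504 to 54.2 CPM and Fgf21 from 0.194 to 4.51 CPM, and Fgf7, Fgf10 and the receptor Fgfr2 fell. In Notch signalling (8 of 15 tested) 3 rose, 0 fell and 5 were not called (median 0.40): the targets Hes1, from 3.06 to 26.9 CPM, and Hey2, with a ratio of 126 (95% counting interval 42.9 to 616), and the receptor Notch3, from 1.31 to 7.42 CPM. Prostaglandin genes (10 of 12 tested) rose in 3 and fell in 4 (median -0.07), with the inducible cyclooxygenase Ptgs2 falling from 88.5 to 36.3 CPM and Ptgs1 not called.

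Of 28 genes of the primary cilium and hedgehog signalling 12 rose, 5 fell and 11 were not called (median 0.27, but 0.145 with total counts alone). Resting fibroblasts are known for carrying a cilium, but whether these cells rested was not measured. Ift80, Kif3a and Bbs4 rose from 47.6 to 74.1, 49.5 to 69.7 and 9.09 to 17.8 CPM, and Traf3ip1 fell from 19.5 to 8.98 CPM. In hedgehog signalling Gli2 rose from 6.75 to 30.3 CPM, the inhibitor Hhip fell from 29.6 to 7.38 CPM, Ptch1 fell from 23.1 to 16.1 CPM and Gli1, the usual readout, was not called. Of 16 circadian clock genes 11 fell, 3 rose and 2 were not called (median -0.46). Nr1d1 (Rev-erb alpha) measured 13.0, 13.8 and 9.99 CPM in MEFD0 and 3.41, 5.19 and 2.49 CPM in MEFD3min and Per2 fell from 3.87 to 0.946 CPM, while the output gene Dbp measured 6.72, 6.78 and 7.03 CPM in MEFD0 and 16.0, 14.1 and 15.4 CPM in MEFD3min. The hour of harvest is not stated, so phase and amplitude cannot be told apart.

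Fate genes were examined because these cells can become fat cells. Among 14 tested of 15 adipocyte genes 5 rose, 3 fell and 6 were not called (median 0.84, or 0.52 with genes at the floor at their bounds). Pparg, the master regulator of fat cells, measured 17.9, 16.5 and 19.4 CPM in MEFD0 and 11.9, 12.2 and 13.2 CPM in MEFD3min, and its target Fabp4 measured 8.26, 10.8 and 11.97 CPM in MEFD0 and 5.20, 6.51 and 6.66 CPM in MEFD3min. Both fell modestly, Pparg 1.44-fold. The factors Cebpa and Cebpd rose from 1.67 to 4.46 and 41.0 to 71.9 CPM. Adipoq had 0, 3 and 0 counts in MEFD0 and 0, 27 and 1 counts in MEFD3min: the call rests on MEFD3min replicate 3, without which the log2 fold change was -0.72 and the list's median -0.11. The call was also lost without MEFD0 replicate 1 (2.70) or 4 (2.57), and 3 members of the list rose without MEFD0 replicate 1. The list's median was 1.28 without MEFD0 replicate 4, 0.30 in the 6 samples alone (3 of 9 rose) and 0.26 with at least 10 counts, and 3 rose with total counts alone. Markers of mature fat cells such as Plin1, Cidec and Retn stayed under 1 CPM and were not called. In MEFD3plu the list stood 7.70 above MEFD3min by its median, so the treated cells mark the scale of a fat cell programme.

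Genes of stromal progenitors rose in 6 of 10 tested of 12 and fell in 2 (median 1.86, or 0.90 with genes at the floor at their bounds; 1 fell without MEFD0 replicate 1 or 3 or MEFD3min replicate 1, or in the 6 samples alone). Of the 7 with at least 10 counts in every sample 3 rose and 2 fell (median 0.16), so the list's median depends on genes with few counts. Pdgfra measured 124, 133 and 116 CPM in MEFD0 and 379.8, 423 and 376 CPM in MEFD3min, and Ebf2 rose from 14.3 to 87.4 CPM. Pi16, a marker of a universal fibroblast type in adult tissue, had a ratio of 469 (95% counting interval 83.7 to 18600.0), at a mean of 4.55 CPM. Ly6c1 fell from 31.1 to 16.4 CPM and Pdgfrb was not called. Skeletal genes (10 of 16 tested) rose in 5, fell in 2 and were not called in 3 (median 0.72, but -0.48 with genes at the floor at their bounds, and -0.16 with at least 10 counts, where 2 of 5 rose; 3 rose in the 6 samples alone). Sox9 and Runx2, regulators of cartilage and bone, fell from 67.7 to 24.4 and 33.9 to 19.7 CPM, and the tendon factor Scx rose from 1.31 to 4.08 CPM. Tnmd had 0 counts at day 0 and rose at least 2.26-fold.

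Of 39 Hox genes, a list chosen after values were seen, 21 were tested, 14 rose, 1 fell and 6 were not called (median 0.55), with log2 fold changes from -0.36 to 1.20. Hoxb9, the most abundant member, fell from 132 to 112 CPM and Hoxa5 rose from 30.6 to 66.7 CPM. None of the Hoxd genes had enough counts to be tested. Oncofetal regulators, also chosen after values were seen, fell in 4 of 6 tested of 7 and rose in 1 (median -0.40): the chromatin proteins Hmga2 and Hmga1 fell from 1660.0 to 614 and 844 to 269 CPM, and Lin28b was not called. As a check of the embryos' sex, the Y-linked Ddx3y measured 350.4, 323 and 329.9 CPM in MEFD0 and 546, 458 and 598 CPM in MEFD3min and Xist measured 0.137, 0.0265 and 0.112 CPM in MEFD0 and 0.282, 0.337 and 0.538 CPM in MEFD3min. High Ddx3y with Xist under 1 CPM in all 6 samples marks the cultures as chiefly male at both times, with all 5 genes of this check higher at day 3 (median 0.68).

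Among named genes that passed, did not overlap between the groups and reached 3 in mean log2 CPM, the 12 most increased were Igf2, Angptl7, H19, Oasl2, Lum, Lama4, Usp18, Ifi27l2a, Isg15, Igfbp5, Dcn and Gbp3. Of these, Angptl7 is a secreted matrix-associated protein and measured 0.274, 0.344 and 0.865 CPM in MEFD0 and 573, 509 and 559 CPM in MEFD3min. The 12 are thus made up of interferon effectors and GTPases, matrix genes and the IGF system, with Angptl7 and H19 beside them. Among the 12 most decreased were Nav2, Prkg2, S100a4, Mfap3l, E2f7, Nipal1, Dclk1, Fanca, Tinagl1, Polq and Lrp8. Prkg2, a cGMP-dependent kinase, measured 258, 250.5 and 264 CPM in MEFD0 and 16.5, 13.8 and 17.5 CPM in MEFD3min, and Nav2, a cytoskeletal protein of neurons, measured 61.3, 63.2 and 44.8 CPM in MEFD0 and 2.22, 3.31 and 1.75 CPM in MEFD3min. S100a4, a calcium-binding protein linked to motility, measured 134, 135 and 169 CPM in MEFD0 and 10.2, 8.70 and 16.8 CPM in MEFD3min, though 47.4% of its stretches are shared with the overlapping Gm42674. Fanca and Polq, which repair DNA, fell 7.52-fold and 7.34-fold, Mfap3l fell from 346 to 33.8 CPM, and the lipoprotein receptor Lrp8 fell 7.31-fold. Nipal1, Dclk1 and Tinagl1 fell 7.97-fold, 7.59-fold and 7.35-fold.

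The same lists at day 5 without treatment show which changes lasted. The comparisons share MEFD3min or MEFD0 samples, so their values stand side by side. Between day 3 and day 5 the median log2 fold change was 1.48 for DNA replication and 1.88 for mitosis, upward after the fall. Mki67 measured 504, 486 and 494 CPM in MEFD5min, between its day 3 and day 0 values in all 3 samples. Against day 0, MEFD5min had a median of -0.50 for DNA replication and -0.34 for mitosis. Ribosome biogenesis stood 0.58 higher and the contractile list 0.74 higher at day 5 by their medians, and Acta2 measured 441, 484 and 458 CPM and Ccn2 199, 232 and 202 CPM, both above their day 0 values. Between day 3 and day 5 the interferon effectors had a median of -0.81, the GTPases of -1.40, collagens of -0.82 and lysosomal genes of -0.79. Against day 0 the same lists stood at 4.91, 5.10, 0.82 and -0.13 at day 5. Isg15 at 107, 35.8 and 125 CPM and Col3a1 at 2615, 1768 and 2335 CPM in MEFD5min were still far above their day 0 levels, with replicate 3 the lowest in both. At day 5 the cell cycle and lysosomal lists were thus closer to day 0 than at day 3 by their medians, and interferon and collagen genes were still above it.

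Over the same 3 days, treated cells differed from untreated ones more in some of these families than in others. MEFD3plu against MEFD3min gave a median of -0.02 for DNA replication and -0.11 for mitosis, close to 0, though 13 of 39 (4 higher, 9 lower) and 16 of 44 (2 higher, 14 lower) were called, and Mki67 measured 134, 123 and 138 CPM in MEFD3plu. Interferon effectors had a median of -5.46, the GTPases of -6.77 and class I genes of -2.05 in that comparison. Isg15 measured 0.511, 0.814 and 0.676 CPM and Gbp2 0.170, 0.846 and 0.986 CPM in MEFD3plu, within or below the day 0 range in each treated sample. Collagens stood 0.58 higher with treatment by their median (13 higher, 4 lower), whereas the other matrix glycoproteins stood at -0.92 (7 higher, 22 lower). Col1a1 went the other way from the collagen median, at -1.82, and Col3a1, at -0.35, was called lower only with a replicate block. Igf2 at 909, 1081 and 1104 CPM and H19 at 3091, 3160.0 and 3515 CPM in MEFD3plu were far above day 0, Igf2 below and H19 above the untreated cells. The fall of the cell cycle genes and the rise of Igf2 and H19 therefore appeared in both media, and the rise of the interferon genes in the untreated medium.

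Promoters of the families that moved together were searched for the elements known for them, in windows from 250 bases before to 50 bases after the start of 27025 genes (RefSeq, GRCm38.p6, both strands). Matched by symbol were 41 of 54 interferon effectors, 30 of 39 genes of DNA replication, 36 of 44 of mitosis, 17 of 24 of cholesterol synthesis and 23 of 27 contractile genes. The core of the interferon-stimulated response element, GAAANNGAAA, was present in 24 of 41 promoters of interferon effectors (58.5%) and in 3.79% of the promoters of all genes tested (10987 matched by symbol). The E2F site, TTTCCCGC or TTTGGCGC, was present in 11 of 30 promoters of DNA replication genes (36.7%) and in 3.33% of those of all genes tested. The cell cycle homology region CHR, TTTGAA, was present in 27 of 36 promoters of mitosis genes (75%) and in 14.6% of those of all genes tested, a short motif that is common by its length. A CArG box, the site of SRF, was present in 6 of 23 contractile promoters (26.1%) and in 1.67% of those of all genes tested, and the sterol element, TCACNCCAC, in 1 of 17 cholesterol promoters (5.88%) and in 1.34%. In the 250 bases before the start alone, the shares were 53.7%, 20%, 38.9%, 26.1% and 5.88%, against 3.24%, 2.79%, 13%, 1.49% and 1.2% for all genes tested. Motifs of different kinds may overlap, and a match is a description of letters and not of binding.

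Promoters to show were picked among members that hold the motif of their list, by the largest absolute log2 fold change. The presence of the motif was thus fixed in advance, and in the cholesterol list only 1 of 17 promoters held it. The 250 bases before the start are shown for Rsad2 (viperin) and Isg15 (effectors), Mki67 and Espl1 (mitosis) and Hmgcs1 (cholesterol). They run 5′ to 3′ on the gene's strand with the motif in capitals (the ISRE core for Rsad2 and Isg15, the CHR for Mki67 and Espl1, the sterol element for Hmgcs1). They lie at chr12:26456453-26456702 (minus strand), chr4:156200819-156201068 (minus), chr7:135716380-135716629 (minus), chr15:102296043-102296292 (plus) and chr13:119690101-119690350 (plus). Isg15 carries 3 overlapping copies of the core, and Mki67 carries 2 copies of the CHR.
Rsad2: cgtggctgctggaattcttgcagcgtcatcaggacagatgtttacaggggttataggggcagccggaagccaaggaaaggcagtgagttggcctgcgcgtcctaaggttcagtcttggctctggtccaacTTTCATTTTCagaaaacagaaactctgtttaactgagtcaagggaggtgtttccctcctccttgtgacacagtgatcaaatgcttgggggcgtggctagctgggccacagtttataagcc
Isg15: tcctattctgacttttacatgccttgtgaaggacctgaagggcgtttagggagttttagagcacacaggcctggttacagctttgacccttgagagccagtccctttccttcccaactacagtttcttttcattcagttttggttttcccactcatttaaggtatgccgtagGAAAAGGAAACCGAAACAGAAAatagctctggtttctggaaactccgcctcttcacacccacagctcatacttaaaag
Mki67: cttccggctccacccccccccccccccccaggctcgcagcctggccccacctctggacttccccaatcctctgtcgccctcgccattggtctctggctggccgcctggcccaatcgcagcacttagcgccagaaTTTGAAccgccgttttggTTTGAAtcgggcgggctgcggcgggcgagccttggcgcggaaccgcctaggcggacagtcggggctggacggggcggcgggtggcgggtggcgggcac
Espl1: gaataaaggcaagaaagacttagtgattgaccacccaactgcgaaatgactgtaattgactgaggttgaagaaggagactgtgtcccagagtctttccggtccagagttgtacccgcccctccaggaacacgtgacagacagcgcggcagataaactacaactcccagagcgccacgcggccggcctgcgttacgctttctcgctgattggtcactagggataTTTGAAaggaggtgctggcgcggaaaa
Hmgcs1: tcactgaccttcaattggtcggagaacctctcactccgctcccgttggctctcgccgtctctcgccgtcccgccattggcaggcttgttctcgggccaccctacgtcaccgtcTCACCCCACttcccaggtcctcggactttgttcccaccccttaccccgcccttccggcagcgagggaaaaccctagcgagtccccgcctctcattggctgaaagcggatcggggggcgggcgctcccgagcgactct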

How the data were processed

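RNA of 15 samples in 5 groups of 3 was sequenced, and 6 of them, MEFD0 and MEFD3min, are compared here. Per the labels, the authors processed the reads with TopHat2 2.1.0, HTSeq and DESeq2 on GRCm38 (mm10) and deposited raw counts per Ensembl gene without normalization. Annotation release, strand setting and the rule for multi-mapping reads are not stated.

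Genes were named with GENCODE M21. Genes with enough counts for edgeR's filter on the 5 groups were kept (15997 of 29186 with a count). Libraries were scaled by TMM and all 15 samples fitted with edgeR 4.0.16 (R 4.3.3). Comparisons used its quasi-likelihood test, Benjamini-Hochberg adjusted over all genes tested, called under 0.05. MEFD5min and MEFD3plu were compared with MEFD3min in the same fit. The fit was also run on simulated counts, whose outcome is not used here. Standard errors are the log2 fold change over the root of the F statistic. Depth was 27144003 to 36039085 counts, and where no sample of a group exceeded 3 counts the gene was put at a floor of 3 counts per library. Intervals of ratios are 95% counting intervals.

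Per-sample values are given for a rule's genes: the 12 most increased and 12 most decreased named genes with mean log2 CPM of 3 or more that passed without overlap, a fixed set of key genes, and up to 5 members of each gene list. Lists and members were chosen with earlier results of these data known. The lists of integrins, Hox genes, FGF, Notch, prostaglandin genes, caveolae, oncofetal regulators and the proteasome, and genes named outside the rule, were picked after their values were seen. Sequence shared between genes was counted as 50-base stretches of exons.

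Alternatives tried were DESeq2 1.42.0, its size factors, total counts alone, the 6 compared samples alone, no filter, at least 10 counts in every sample, adjusted p under 0.01, at least 2-fold changes, a replicate block, and each sample left out. The fit has no replicate block. In their deviations from the group means, same-number samples of MEFD0 and MEFD3min correlated at 0.0837, 0.132 and 0.18, so not all were over 0.1 and the samples were taken to share only a number. Those of MEFD3min and MEFD3plu correlated at 0.143, 0.228 and 0.36, which pairs them by the data and not by the labels; with the block, MEFD3plu against MEFD3min called 9451 genes in place of 8967. MEFD5plu was fitted but not compared, as it does not bear on untreated cells.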

Additional observations from a re-analysis of the deposited data

Results flagged for a closer look

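For the genes with the largest changes between MEFD0 and MEFD3min, the change from MEFD0 to MEFD3plu was compared with the change from MEFD0 to MEFD3min by testing MEFD3plu against MEFD3min. Both changes share the MEFD0 samples. Of the 12 most increased genes, 11 differed: 10 were lower in MEFD3plu than in MEFD3min and 1 was higher (edgeR's quasi-likelihood test, Benjamini-Hochberg adjusted p at most 0.00239 over the 3 samples of each group). Of the 12 most decreased genes, 8 differed: 6 fell less with treatment and 2 fell more (the same test, edgeR's Benjamini-Hochberg adjusted p at most 0.00282). Over all genes tested, 56.1% were called in this comparison, 28.0% higher and 28.0% lower, so 8 of 12 is near the share of all genes. Of the 10 increased genes that were lower in MEFD3plu, Oasl2, Usp18, Ifi27l2a, Isg15 and Gbp3 stood between -0.31 and 0.31 from MEFD0 in MEFD3plu on the log2 scale, and the other 5 were above MEFD0. Angptl7 is one of these 5, with 573, 509 and 559 CPM in MEFD3min and 8.11, 6.99 and 6.09 CPM in MEFD3plu, and H19 is the gene that rose more, with 3091, 3160.0 and 3515 CPM in MEFD3plu. Among the decreased genes, Nav2 measured 2.22, 3.31 and 1.75 CPM in MEFD3min and 5.52, 5.29 and 3.75 CPM in MEFD3plu. The genes were picked by their change in untreated cells, which by itself favours a smaller change elsewhere. A fit with a replicate block called the same 11 and 8 genes. Which of the 4 agents the differences depend on was not tested.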

How the results depend on the processing

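The count of genes called for MEFD3min against MEFD0 (9601) was 9748 with DESeq2, 9570 with its size factors, 9649 with total counts alone, 8303 in the 6 compared samples alone, 9853 without a filter, 8145 for genes that reached 10 counts in all samples, 7888 at an adjusted p under 0.01 and 10010 with a replicate block. Requiring at least 2-fold changes gave 4068, and 2150 for MEFD5min and 3814 for MEFD3plu against MEFD3min. Leaving out single samples gave 8859 to 9692, 5937 to 7286 and 8157 to 9283.

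The share of called genes that were higher in MEFD3min, 52.3%, became a minority with total counts alone (43.9%). It was 50.5% in the 6 samples alone, 54.3% without a filter, 51.2% with at least 10 counts, 59.4% for at least 2-fold changes and 51.4% to 52.9% with single samples left out. Scaling thus decides which direction is the more frequent.

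Each list median was given a jackknife standard error from the fits with single samples left out. Of 44 list medians, 27 moved by no more than this error under total counts alone and 17 by more. There, the sign changed for mitochondrially encoded genes (-0.089, from 0.041). Directions changed for replication-dependent histones (2.001 in the 6 samples alone and 2.630 with at least 10 counts, where 3 and 2 genes were left to test) and for skeletal fate (-0.156 with at least 10 counts). Single samples left out also changed signs. Adipocyte genes stood at -0.109, from 0.836, without MEFD3min replicate 3. Nuclear oxidative phosphorylation stood at 0.033 and 0.067, from -0.034, without MEFD0 replicate 4 or MEFD3min replicate 3. Mitochondrially encoded genes stood at -0.008 and -0.180 without MEFD0 replicate 3 or MEFD3min replicate 4. Of 229 genes named by the rule and tested, 216 could be run in the 6 samples alone and 178 with at least 10 counts. Stricter thresholds aside, 215 kept direction and call in the alternatives they were run in, among them 169 of the 178 run in all. Adipoq reversed without MEFD3min replicate 3 (-0.720, from 3.13) and stood at 6.234 without MEFD0 replicate 3. Under the stricter thresholds, 47 of the 229 changed less than 2-fold and 12 missed an adjusted p of 0.01. Genes near the floor are limited by depth.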

Other observations

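The limits of these values are those of the design. With 3 samples per group whose independence is not stated for this RNA, what the spread measures is not known. Density, medium age and passage were not measured, and bulk RNA gives no share of cells in cycle or of cells that answer interferon. Protein, interferon in the medium and extracellular matrix were not measured, so a transcript's rise says nothing of its product. Values are relative to the library: a change in RNA per cell between the groups would not be seen. Causes of the changes were not tested.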
